A study of Mus musculus with 12 samples.

Results

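The 10 genes described here, Cd34, Gata2, Myb, Meis1, Hoxa9, Hlf, Mecom, Erg, Sox4 and Cbfa2t3, are genes of blood stem and progenitor cells. They were chosen by name, with earlier results of these data known, and matched by mouse symbol to 10 of the 56953 Ensembl genes in the tables. The study asked how macrophages of embryonic origin in the bone marrow differ from those made by adult haematopoietic stem cells (HSCs). Polyadenylated RNA was sequenced from 12 bone marrow samples of female C57BL/6J mice aged 8 weeks, in 4 groups of 3 libraries.

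The eYFP+ macrophages carried the yellow fluorescent reporter of Rank cre/+;R26.eYFP fl/+ mice, in which a Cre recombinase at the Rank locus marks the embryonic macrophage lineage. The eYFP- macrophages did not carry it and are the adult, HSC-derived group. The remaining groups were Ly6Chi monocytes, the classical inflammatory type, and Ly6Clo monocytes, the patrolling type, both of adult origin per their labels. Per the study's methods, macrophages were gated on CD45, F4/80, CD206 and VCAM1, and the reporter marks only cells whose ancestors expressed Rank-cre. All groups were sorted by surface markers as mature myeloid cells, which does not show that a library held only such cells. No stem cell sample was part of the series. Whether the 3 libraries of a group came from separate mice or from pools is not stated, so p-values measure the spread between these samples, which may be technical.

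HSCs sit at the top of blood formation and give rise, through progenitors with narrowing potential, to all mature blood cells. Their state is held by a network of transcription factors, and most of these are switched off as cells mature into monocytes or macrophages. Several members are also used elsewhere: Gata2 in mast cells and basophils, Erg and Cd34 in endothelium, and Cbfa2t3 in the erythroid and megakaryocyte lineages.

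The promoters of 4 members are shown because these genes carry the results below: Cd34 and Gata2 had the highest levels in eYFP- macrophages, Meis1 was the member most evenly present in all groups, and Cbfa2t3 had an order of groups unlike the others. Each is 300 bases from RefSeq (GRCm38.p6, another build than the GRCm39 used for the counts), 250 before and 50 after an annotated start, read 5′ to 3′ on the strand of the gene. Capitals mark matches to the searched motifs.
Cd34, chr1:194938571-194938870, plus strand: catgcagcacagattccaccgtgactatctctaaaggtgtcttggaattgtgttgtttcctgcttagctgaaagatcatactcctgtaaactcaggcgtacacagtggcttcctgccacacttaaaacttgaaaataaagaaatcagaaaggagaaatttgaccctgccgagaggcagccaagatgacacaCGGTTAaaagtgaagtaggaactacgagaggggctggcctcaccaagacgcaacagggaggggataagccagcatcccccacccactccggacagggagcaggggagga
Gata2, an upstream start, chr6:88193641-88193940, plus strand: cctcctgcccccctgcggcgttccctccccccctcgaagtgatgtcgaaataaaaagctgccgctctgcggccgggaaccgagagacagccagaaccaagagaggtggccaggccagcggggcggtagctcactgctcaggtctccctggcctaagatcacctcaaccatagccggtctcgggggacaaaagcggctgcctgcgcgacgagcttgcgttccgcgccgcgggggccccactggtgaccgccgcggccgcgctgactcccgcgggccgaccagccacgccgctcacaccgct
Meis1, chr11:19018920-19019219, minus strand: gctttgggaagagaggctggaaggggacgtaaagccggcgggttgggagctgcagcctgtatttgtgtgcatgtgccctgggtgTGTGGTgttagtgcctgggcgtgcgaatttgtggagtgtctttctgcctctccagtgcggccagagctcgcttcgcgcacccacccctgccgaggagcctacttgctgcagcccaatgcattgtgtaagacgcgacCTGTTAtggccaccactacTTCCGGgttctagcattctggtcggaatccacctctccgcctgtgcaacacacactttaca
Cbfa2t3, an upstream start, chr8:122699060-122699359, minus strand: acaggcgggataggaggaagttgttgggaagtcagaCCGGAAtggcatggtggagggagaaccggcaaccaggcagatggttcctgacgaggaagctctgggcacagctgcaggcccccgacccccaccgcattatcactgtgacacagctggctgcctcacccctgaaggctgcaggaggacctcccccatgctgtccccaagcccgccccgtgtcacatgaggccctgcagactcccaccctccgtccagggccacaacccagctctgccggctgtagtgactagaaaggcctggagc

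The motifs searched, on both strands, were AGATAA for GATA factors, CCGGAA for ETS factors, TGACAG for MEIS factors, TAACNG for MYB, TTACGTAA for HLF and TGTGGT for RUNX factors. All 10 members were found in the RefSeq table, with 15 promoters among them. The Cd34 promoter held 1 MYB match, and the Meis1 promoter held 1 match each for MYB, ETS and RUNX motifs. The Cbfa2t3 promoter shown held 1 ETS match, and the other Cbfa2t3 promoter, at 81.7% GC, held none. The Gata2 promoter shown, at 69.3% GC, held no match to these letters. Neither did the other Gata2 promoter, at 73.7% GC. Among the 15 promoters, 3 held the ETS motif, 3 the MYB motif, 2 the MEIS motif, 1 the GATA motif and 1 the RUNX motif. Over all 32851 promoters of the same length, the shares were 14.9% for ETS, 23.3% for MYB, 19.2% for MEIS, 11.2% for GATA and 16.8% for RUNX. The HLF motif was in 0 member promoters and in 0.119% of all promoters. These matches describe the letters only.

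Depth ranged from 26390927 to 48618187 read pairs counted per library. The labels matched the defining markers: 8 macrophage genes summed to 19273 to 29803 TPM (counts per gene length, scaled to a common total in each library) in macrophage libraries and to 741 to 2936 TPM in monocyte libraries. The sum of 7 monocyte genes ran the other way, with 50.04 to 125 TPM in macrophages and 734 to 9508 TPM in monocytes. Ly6Clo replicate 2 and eYFP+ replicate 1 stood apart from the rest of their groups, with fewer counts for GC-rich transcripts. The median log2 ratio of 1294 GC-rich genes to the group's other libraries was -1.27 and -0.74. Transcripts of the members ranged from 42.4% GC for Meis1 to 58.2% for Gata2.

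Most members were low-abundance transcripts, and 9 of 10 had their highest mean TPM in eYFP- macrophages. The exception was Cbfa2t3, which was highest in Ly6Clo monocytes. In eYFP- macrophages 6 of 10 members reached 1 TPM in all 3 libraries, against 4 in Ly6Chi monocytes, 3 in Ly6Clo monocytes and 1, Meis1, in eYFP+ macrophages. For Cd34, Gata2, Meis1 and Hoxa9, every eYFP- library lay above all 9 other libraries on the TPM scale, as was the case for 3.98% of 21567 genes. In a bulk sample, fewer cells of a type and less RNA per cell cannot be told apart.

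**Figure D1:**
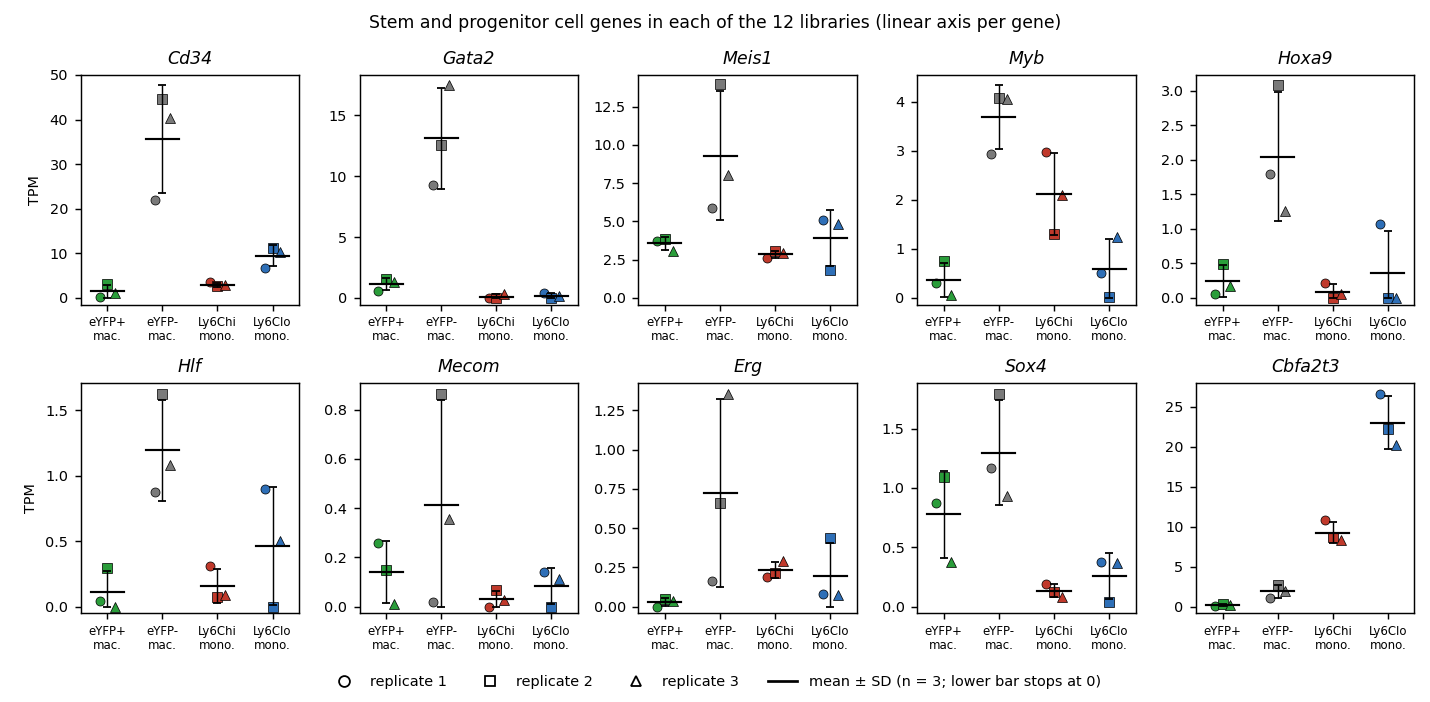
Level of each of the 10 stem and progenitor genes in TPM (linear axis, one scale per gene) in the 12 libraries; symbols are replicates 1 to 3 and bars are mean ± SD (n = 3). The eYFP- macrophages had the highest mean for 9 genes, and Cbfa2t3 was highest in Ly6Clo monocytes with 20.2 to 26.6 TPM.

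Cd34 (ENSMUSG00000016494) encodes a sialomucin on the surface of progenitors and endothelial cells and was the most abundant member. Its levels in eYFP- macrophages were 22.0, 44.6 and 40.4 TPM (mean 35.7 ± 12.0, SD, n = 3), against 0.168, 3.12 and 1.16 TPM in eYFP+ macrophages. In monocytes it stood at 3.50, 2.64 and 2.82 TPM in the Ly6Chi group and at 6.74, 11.1 and 10.4 TPM in the Ly6Clo group. The eYFP- libraries were all above the Ly6Clo libraries, and those were all above the Ly6Chi libraries. Only the Ly6Chi and eYFP+ ranges overlapped. The lowest value, in eYFP+ replicate 1, came from 9 read pairs.

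Gata2 (ENSMUSG00000015053), a zinc finger factor that HSCs need to survive and expand, was found mostly in eYFP- macrophages. It measured 9.26, 12.5 and 17.4 TPM there (mean 13.1 ± 4.12) and 0.546, 1.55 and 1.35 TPM in eYFP+ macrophages. Ly6Chi monocytes had 0, 0 and 0.360 TPM, and Ly6Clo monocytes had 0.415, 0 and 0.150 TPM. The 3 libraries at 0 had no read pair, which at these depths allows up to 3 counts, for counting error only. The macrophage groups did not overlap with each other or with the monocytes, and the monocyte groups overlapped.

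Myb (ENSMUSG00000019982), a factor that drives proliferation of progenitors and is needed for HSC-derived blood cells, was shared between 2 groups. It was 2.93, 4.08 and 4.05 TPM in eYFP- macrophages and 2.98, 1.30 and 2.11 TPM in Ly6Chi monocytes, and these ranges overlapped. In Ly6Clo monocytes it was 0.519, 0.0166 and 1.24 TPM, and in eYFP+ macrophages 0.309, 0.748 and 0.0552 TPM, again overlapping. The values of the first pair of groups all lay above those of the second. The lowest, in Ly6Clo replicate 2, came from 1 read pair.

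Meis1 and Hoxa9 are homeobox factors that act as partners in early progenitors. Meis1 (ENSMUSG00000020160) was present in all 12 libraries, at 5.88, 14.0 and 8.02 TPM in eYFP- macrophages and 3.75, 3.84 and 3.08 TPM in eYFP+ macrophages. Ly6Chi monocytes had 2.61, 3.05 and 2.92 TPM and Ly6Clo monocytes had 5.09, 1.83 and 4.84 TPM. The eYFP- libraries were highest, and the Ly6Clo range, set by its low replicate 2, spanned both of the other groups. Hoxa9 (ENSMUSG00000038227) was lower, with 1.80, 3.08 and 1.26 TPM in eYFP- macrophages and 0.0590, 0.498 and 0.177 TPM in eYFP+ macrophages. It was 0.222, 0 and 0.0544 TPM in Ly6Chi monocytes. In Ly6Clo monocytes a single library held all its reads, at 1.07, 0 and 0 TPM. Only the eYFP- range stood clear.

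Hlf, Mecom and Erg are linked to the most primitive HSCs, and their group means reached at most 1.19 TPM. Hlf (ENSMUSG00000003949), a leucine zipper factor, was 0.873, 1.62 and 1.08 TPM in eYFP- macrophages and 0.0422, 0.294 and 0 TPM in eYFP+ macrophages. Ly6Chi monocytes had 0.308, 0.0728 and 0.0933 TPM and Ly6Clo monocytes 0.896, 0 and 0.502 TPM. Ly6Clo replicate 1 thus lay just above the lowest eYFP- library in TPM, and just below it in normalized counts (98.5 against 103). Mecom (ENSMUSG00000027684), the zinc finger protein also called Evi1, was at the edge of detection, with 0.0199, 0.864 and 0.358 TPM in eYFP- macrophages and 0.261, 0.149 and 0.00930 TPM in eYFP+ macrophages. Its monocyte values were 0 to 0.139 TPM, and all neighbouring groups overlapped. Erg (ENSMUSG00000040732), an ETS factor, was 0.161, 0.662 and 1.35 TPM in eYFP- macrophages. The eYFP+ macrophages had 0, 0.0463 and 0.0376 TPM, which were 0, 3 and 3 read pairs. Ly6Chi monocytes had 0.189, 0.217 and 0.288 TPM and Ly6Clo monocytes 0.0805, 0.434 and 0.0751 TPM, overlapping with each other and with eYFP- macrophages.

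Cbfa2t3 departed from this order, while Sox4 had the group order of Gata2 and Mecom. Sox4 (ENSMUSG00000076431), a high-mobility-group factor of many immature cells, was present in both macrophage groups. It measured 1.16, 1.79 and 0.936 TPM in eYFP- and 0.873, 1.09 and 0.374 TPM in eYFP+ macrophages, and these ranges overlapped. Ly6Chi monocytes had 0.192, 0.122 and 0.0854 TPM, and Ly6Clo monocytes had 0.373, 0.0384 and 0.366 TPM. Every macrophage library was above every monocyte library in TPM, though eYFP+ replicate 3 and the highest Ly6Clo value differed little (0.374 against 0.373 TPM) and changed order in normalized counts (32.6 against 36.6). Cbfa2t3 (ENSMUSG00000006362), a corepressor also called Eto2, had the only full separation of 4 groups. It was 26.6, 22.3 and 20.2 TPM in Ly6Clo monocytes and 10.8, 8.68 and 8.34 TPM in Ly6Chi monocytes. In eYFP- macrophages it was 1.10, 2.77 and 1.95 TPM, and in eYFP+ macrophages 0.149, 0.368 and 0.171 TPM. No range of Cbfa2t3 overlapped with another.

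Between the macrophage groups, 4 of 10 members were lower in eYFP+ macrophages and 0 were higher in DESeq2 (adjusted p under 0.05, all 12 libraries in 1 fit), and all 10 fold changes were below 0. Of all 21567 genes tested, 1.88% were called lower and 0.153% higher. The 4 were Cd34, with a log2 fold change of -4.58 ± 0.67 (SE, adjusted p = 8.81e-09), Cbfa2t3 (-3.03 ± 0.40, adjusted p = 1.09e-10), Erg (-4.67 ± 1.11, adjusted p = 0.00275) and Myb (-3.26 ± 0.94, adjusted p = 0.0315). By DESeq2, Meis1 stood at -1.31 ± 0.42 (adjusted p = 0.0703), Hlf at -3.38 ± 1.31 (adjusted p = 0.241), Gata2 at -3.51 ± 1.66 (adjusted p = 0.474) and Hoxa9 at -3.04 ± 1.51 (adjusted p = 0.534). These 4 did not pass although their groups did not overlap. Mecom (-1.37 ± 1.44) and Sox4 (-0.67 ± 0.68) overlapped and both had a DESeq2 adjusted p of 1. The eYFP+ libraries lay wholly below the eYFP- libraries in normalized counts (counts scaled for depth) for 8 of 10 members, against 8.50% of all genes tested. The median of the 10 log2 fold changes was -3.15, and that of all genes tested was 0.05.

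How many members passed between the macrophage groups depended on the fit. The edgeR quasi-likelihood test called 2, Cbfa2t3 (adjusted p = 0.00801) and Cd34 (adjusted p = 0.0315), where 0.328% of its 19189 genes were called lower. A DESeq2 fit on the 6 macrophage libraries alone, added after the data were seen, called 8, all members but Mecom and Sox4, where 3.06% of genes were called lower. In that DESeq2 fit Gata2 had an adjusted p of 1.52e-13, and the monocyte libraries, 3 of them with 0 Gata2 reads, do not enter its dispersion. The DESeq2 call of Erg was lost without eYFP- replicate 3 (adjusted p = 0.109). There the count fell to 2 of 9 members tested, and 1.31% of all genes were called. The call of Myb was lost under 6 of 12 omissions: of any eYFP- library, of eYFP+ replicate 1 or 3, or of Ly6Chi replicate 3 (DESeq2 adjusted p from 0.0543 to 0.176). Cd34 and Cbfa2t3 kept their DESeq2 calls whichever library was left out, but Cd34 was lost in edgeR with the replicate number as a block (adjusted p = 0.0558) and Cbfa2t3 in limma on log2(TPM + 1) without a filter (adjusted p = 0.0607). Gata2 was called in limma on log2(TPM + 1) with and without a filter (adjusted p = 0.00108 and 0.00691). Other members gained a call: Gata2 without any 1 Ly6Chi library (adjusted p from 0.00109 to 0.0387), Hlf without eYFP+ replicate 2 (-5.68, adjusted p = 0.00887), and Hlf and Meis1 without Ly6Clo replicate 2 (adjusted p = 0.0115 and 0.00105). The count was 6 without Ly6Clo replicate 2 and 3 without eYFP+ replicate 1, the libraries low in GC-rich transcripts. In these fits 4.16% and 2.27% of all genes were called in either direction, against 2.04% with all 12 libraries.

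**Figure D2:**
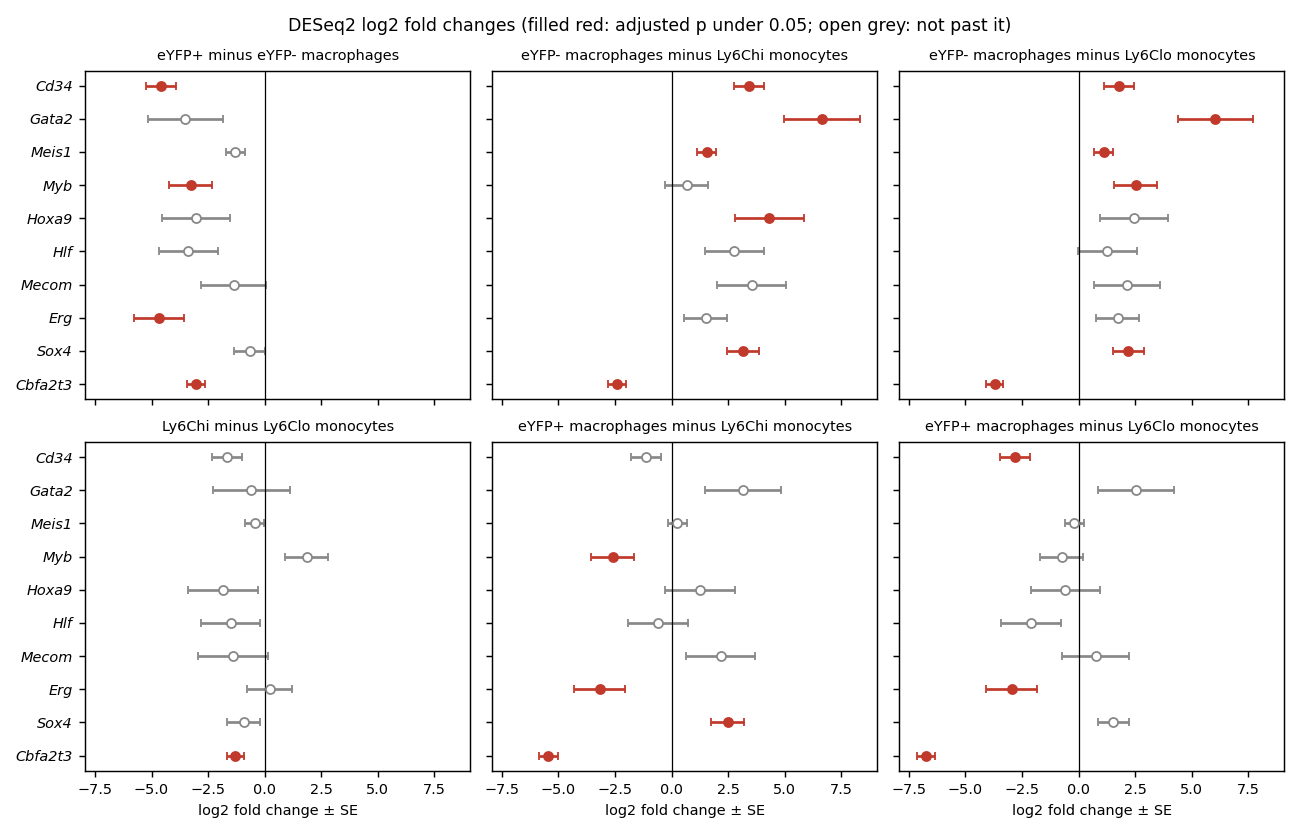
DESeq2 log2 fold change ± SE (horizontal axis) of each gene in the 6 comparisons of groups; filled red points have an adjusted p under 0.05 and open grey points do not. Between the macrophage groups all 10 points lie below 0 and 4 are filled.

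Between the monocyte groups, the clearest member was Cbfa2t3, lower in Ly6Chi than in Ly6Clo monocytes with a log2 fold change of -1.30 ± 0.38 (DESeq2 adjusted p = 0.0107). It was the 1 member of 10 called lower, where 4.96% of genes tested were called lower, and 0 members were called higher, against 3.66% of genes. Cd34 was below the Ly6Clo range in every Ly6Chi library, at -1.67 ± 0.67 (DESeq2 adjusted p = 0.103). Myb was above it in every Ly6Chi library, at 1.86 ± 0.94 (DESeq2 adjusted p = 0.236). At an unadjusted p under 0.05 DESeq2 held these 3 members. The edgeR quasi-likelihood test called 0 members, against 4.32% of its genes in either direction, with 2 at an unadjusted p under 0.05 and an adjusted p of 0.0666 for Cbfa2t3. A DESeq2 fit on the 6 monocyte libraries alone, added after the data were seen, called Cbfa2t3 (adjusted p = 0.0111) and Cd34 (adjusted p = 0.00690) lower, where 3.35% of genes were. The call of Cbfa2t3 was lost without Ly6Chi replicate 2 (DESeq2 adjusted p = 0.0793), without Ly6Chi replicate 3 (adjusted p = 0.0823) or without Ly6Clo replicate 1 (adjusted p = 0.0503). Without Ly6Clo replicate 3, Myb was called higher (3.05, DESeq2 adjusted p = 0.0256). Cd34 was called lower without eYFP+ replicate 1 (adjusted p = 0.00376) or eYFP+ replicate 2 (adjusted p = 0.0267), and Gata2 without Ly6Chi replicate 3 (log2 fold change of -6.04, adjusted p = 0.00969).

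Against Ly6Chi monocytes, eYFP- macrophages were higher in 5 of 10 members and lower in 1. The shares of all 20749 genes tested were 16.3% higher and 11.1% lower. The higher members were Gata2 (log2 fold change 6.64 ± 1.68, DESeq2 adjusted p = 0.000599), Hoxa9 (4.32 ± 1.54, adjusted p = 0.0216), Cd34 (3.43 ± 0.67, adjusted p = 3.13e-06), Sox4 (3.14 ± 0.71, adjusted p = 0.000105) and Meis1 (1.54 ± 0.42, adjusted p = 0.00147). Cbfa2t3 was lower, at -2.41 ± 0.38 (DESeq2 adjusted p = 4.70e-09). Mecom (3.53 ± 1.52), Hlf (2.77 ± 1.31), Erg (1.51 ± 0.96) and Myb (0.66 ± 0.93) did not pass, with DESeq2 adjusted p from 0.0686 to 0.674. Of these only Hlf had groups that did not overlap. With the edgeR quasi-likelihood test 5 members were called, losing Hoxa9 (adjusted p = 0.108), where it called 23.2% of genes in either direction. The DESeq2 fit on the 6 libraries compared called 8, with Hlf (adjusted p = 2.17e-05) and Mecom (adjusted p = 0.0188) added, where it called 34.7% of genes. The call of Hoxa9 was lost without Ly6Chi replicate 2, Ly6Chi replicate 3 or eYFP+ replicate 3 (DESeq2 adjusted p = 0.106, 0.0936 and 0.125). With any eYFP- library left out, Hoxa9 had no adjusted p, so its call could not be checked there. Hlf was called without Ly6Clo replicate 2 (adjusted p = 0.0139) or eYFP+ replicate 3 (adjusted p = 0.0485). Mecom was called without either of these (adjusted p = 0.0342 and 0.0497) or without eYFP- replicate 1 (adjusted p = 0.0368).

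Against Ly6Clo monocytes, eYFP- macrophages were again higher in 5 members and lower in 1, where 15.4% of genes tested were higher and 10.8% lower. Gata2 (6.05 ± 1.67, DESeq2 adjusted p = 0.00208), Myb (2.52 ± 0.94, adjusted p = 0.0315), Sox4 (2.21 ± 0.69, adjusted p = 0.00822), Cd34 (1.77 ± 0.66, adjusted p = 0.0327) and Meis1 (1.11 ± 0.42, adjusted p = 0.0322) were higher. Cbfa2t3 was lower, at -3.72 ± 0.38 (DESeq2 adjusted p = 1.43e-20). Hoxa9 stood at 2.46 ± 1.50, Mecom at 2.13 ± 1.46, Erg at 1.72 ± 0.96 and Hlf at 1.26 ± 1.30 (DESeq2 adjusted p from 0.187 to 0.527). Hoxa9 was called higher in DESeq2 with the replicate number as a block (4.49, adjusted p = 0.0272). Limma called it too, on log2(TPM + 1) with and without a filter (adjusted p = 0.0117 and 0.0466) and on log2(TPM + 0.1) (adjusted p = 0.0303). The edgeR quasi-likelihood test kept only Gata2 (adjusted p = 0.00898) and Cbfa2t3 (adjusted p = 5.65e-05), where it called 21.9% of genes in either direction. The DESeq2 fit on the 6 libraries compared called 4, losing Meis1 (adjusted p = 0.160) and Myb (adjusted p = 0.0557), where it called 19.0% of genes. The count fell to 2 without eYFP- replicate 2 and to 3 without eYFP- replicate 3, of 9 members tested. In these fits 23.5% and 20.8% of all genes were called. Without eYFP- replicate 2, Sox4 (DESeq2 adjusted p = 0.0580), Cd34 (0.107), Myb (0.0815) and Meis1 (0.197) lost their calls.

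Single libraries decided several further calls between eYFP- macrophages and Ly6Clo monocytes. Cd34 was lost without Ly6Clo replicate 1 or 3 or eYFP- replicate 3 (DESeq2 adjusted p from 0.0651 to 0.123). Myb was lost without Ly6Clo replicate 1 or without eYFP- replicate 1 or 3 (DESeq2 adjusted p from 0.0754 to 0.103). Meis1 was lost without Ly6Clo replicate 2, eYFP- replicate 3 or any Ly6Chi library (DESeq2 adjusted p from 0.0513 to 0.0886), and its fold change without Ly6Clo replicate 2 was 0.74. Hoxa9 was called higher without Ly6Clo replicate 1, the only one of its group with Hoxa9 reads (DESeq2 adjusted p = 5.73e-06). Erg was called higher without Ly6Clo replicate 2 (3.07, DESeq2 adjusted p = 0.0107).

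Against Ly6Chi monocytes, 1 of 10 members was higher in eYFP+ macrophages and 3 were lower, where 13.9% and 10.6% of the 23203 genes tested were called. Sox4 was higher (2.48 ± 0.72, DESeq2 adjusted p = 0.00359), a call that was lost in edgeR with the replicate number as a block (adjusted p = 0.0669) and in limma on log2(TPM + 1) with and without a filter (adjusted p = 0.0528 and 0.160). Cbfa2t3 (-5.44 ± 0.40, adjusted p = 1.35e-39), Erg (-3.17 ± 1.13, adjusted p = 0.0234) and Myb (-2.60 ± 0.95, adjusted p = 0.0273) were lower. Gata2 was above every Ly6Chi library at 3.14 ± 1.68 (DESeq2 adjusted p = 0.182), and Meis1 differed by 0.24 ± 0.42 (adjusted p = 0.774). Limma with a filter called Gata2 higher, on log2(TPM + 1) and log2(TPM + 0.1) (adjusted p = 0.0273 and 0.0150), but limma without a filter did not. The edgeR quasi-likelihood test kept Cbfa2t3 (adjusted p = 4.04e-06) and Sox4 (adjusted p = 0.0390), where it called 24.6% of genes in either direction. The DESeq2 fit on the 6 libraries compared called the same 4 members and 30.7% of genes. The DESeq2 calls of Myb and Erg were both lost without eYFP+ replicate 1 or 3 or Ly6Chi replicate 3, that of Myb also without Ly6Chi replicate 1 and that of Erg also without Ly6Chi replicate 2 (adjusted p from 0.0529 to 0.135). Without eYFP+ replicate 1 or 3 the count fell to 2, where 24.3% and 15.7% of all genes were called. Cd34 was called lower without eYFP+ replicate 2 (-2.30, adjusted p = 0.00144), and Gata2 was called higher without Ly6Chi replicate 3 (8.54, adjusted p = 5.44e-06), the one library of its group with Gata2 reads.

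Against Ly6Clo monocytes, 3 members were lower in eYFP+ macrophages and 0 were higher, where 12.2% of genes tested were lower and 15.7% higher. They were Cbfa2t3 (-6.75 ± 0.40, DESeq2 adjusted p = 1.43e-60), Cd34 (-2.81 ± 0.67, adjusted p = 0.000222) and Erg (-2.95 ± 1.13, adjusted p = 0.0345). At an unadjusted p under 0.05 there were 4 members, the fourth being Sox4 on the higher side (1.54 ± 0.70, DESeq2 adjusted p = 0.0832). The edgeR quasi-likelihood test kept Cbfa2t3 (adjusted p = 2.50e-06) and Cd34 (adjusted p = 0.0124), where it called 10.5% of genes lower. The DESeq2 fit on the 6 libraries compared called 2, losing Erg (adjusted p = 0.199), where it called 17.3% of genes. The Erg call was lost without any eYFP+ library (DESeq2 adjusted p from 0.0514 to 0.124) or without Ly6Clo replicate 2 (-1.60, adjusted p = 0.338). Hlf was called lower without Ly6Clo replicate 2 (adjusted p = 0.0328) or eYFP+ replicate 2 (-4.41, adjusted p = 0.0131). Sox4 was called higher without eYFP+ replicate 3 (adjusted p = 0.0449), and Gata2 without Ly6Chi replicate 3 (adjusted p = 0.0103). Limma with a filter also called Gata2 higher, on log2(TPM + 1) and log2(TPM + 0.1) (adjusted p = 0.0453 and 0.0398), but limma without a filter did not. Hoxa9, at -0.58 in the fit of all libraries, was called higher without Ly6Clo replicate 1 (6.12, DESeq2 adjusted p = 0.00428). The 6 comparisons share their libraries in pairs, so their values stand side by side and are not independent.

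In TPM, eYFP- replicate 1 was the lowest of its group for 8 of 10 members and replicate 2 the highest for 8. In normalized counts, replicate 3 was above replicate 2 for Cd34 (1983 against 1969.5) and Myb (287 against 260.3) as well. The sum of the members was 45.2, 86.0 and 76.9 TPM in eYFP- macrophages and 6.16, 11.7 and 6.42 TPM in eYFP+ macrophages. In Ly6Chi monocytes it was 20.8, 16.2 and 17.1 TPM, and in Ly6Clo monocytes, where Cbfa2t3 made up most of it, 41.9, 35.7 and 37.9 TPM. In Ly6Clo replicate 2, the shallowest library, 4 members had 0 counts.

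**Figure D3:**
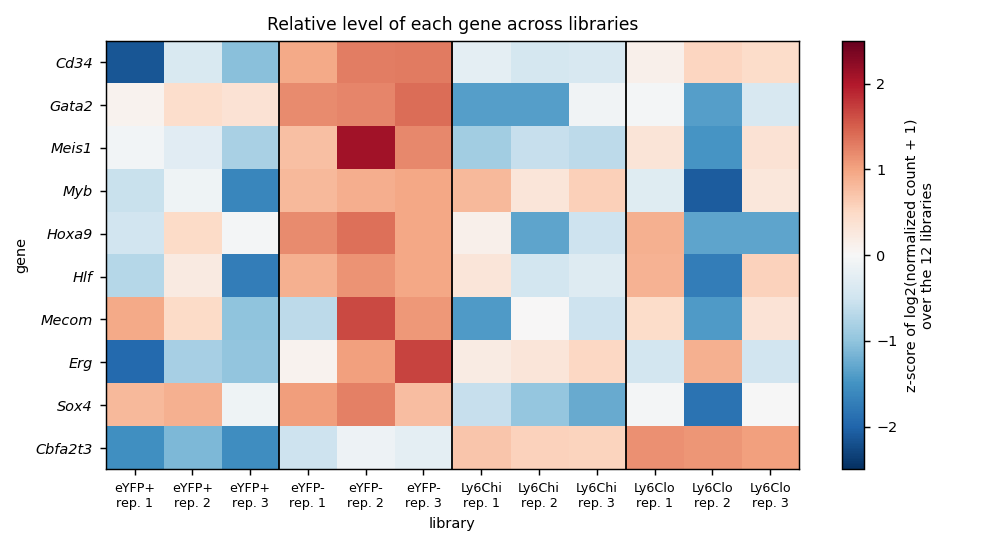
Colour gives the z-score of log2(normalized count + 1) of each gene (rows) over the 12 libraries (columns; vertical lines part the groups). The eYFP- columns are mostly red, and Cbfa2t3 is the one row with its highest values in monocytes.

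Across the 12 libraries, which share their groups and depth, members were compared by Pearson's r of log2(normalized count + 1) as a description. Meis1 (r = 0.93) and Hlf (r = 0.91) lay closest to the mean profile of the 10 members, Erg (r = 0.50) was far from it, and Cbfa2t3 (r = 0.06) did not follow it. The closest pair was Myb and Hlf (r = 0.84), and the most opposed was Cbfa2t3 and Sox4 (r = -0.61). Among 11047 other genes, the 6 most like the mean profile were Nedd4 (r = 0.91), Phgdh (r = 0.89), Gpr141b (r = 0.88), Cd27 (r = 0.88), Stmn1 (r = 0.87) and Sh2d5 (r = 0.87). Cd27, a receptor of the tumour necrosis factor family found on early progenitors, averaged 14.8 ± 9.77 TPM in eYFP- macrophages and 2.30 ± 2.04 TPM in eYFP+ macrophages. Stmn1, a microtubule regulator of dividing cells, averaged 112 ± 9.46 TPM and 32.01 ± 4.67 TPM in these groups. Phgdh, the first enzyme of serine synthesis, averaged 12.2 ± 4.53 TPM and 1.05 ± 0.65 TPM.

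Other genes of early progenitors were followed on 2 lists. Of 14 surface and signalling genes, 6 were lower in eYFP+ than in eYFP- macrophages and 0 were higher, against 1.88% and 0.153% of all genes tested, with a median log2 fold change of -2.75 against 0.05 for all genes. Flt3, the receptor of multipotent and lymphoid progenitors, was 8.88, 14.5 and 15.3 TPM in eYFP- macrophages and 0.0130, 0.947 and 0.368 TPM in eYFP+ macrophages (-4.87 ± 0.83, DESeq2 adjusted p = 2.24e-06). Adgrg1, an adhesion receptor of HSCs, was 22.6, 49.8 and 47.8 TPM against 2.88, 4.05 and 3.30 TPM (-3.50 ± 0.59, DESeq2 adjusted p = 1.40e-06). Angpt1 (-3.32 ± 0.79, adjusted p = 0.00270) and Robo4 (-6.22 ± 1.48, adjusted p = 0.00275) were lower too in DESeq2. Kit and Esam, named here after their values were seen, were also among the 6. Kit, the stem cell factor receptor, was 1.66, 19.2 and 10.7 TPM in eYFP- macrophages and 0.626, 1.71 and 2.33 TPM in eYFP+ macrophages, so its ranges overlapped (-2.69 ± 0.69, DESeq2 adjusted p = 0.00856).

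Flt3 was not particular to eYFP- macrophages, with 18.8 to 30.4 TPM in Ly6Chi and 7.08 to 42.7 TPM in Ly6Clo monocytes. Against Ly6Chi monocytes, 11 of the 14 surface and signalling genes were higher in eYFP- macrophages and 2, Prom1 and Ly6a (named after their values were seen), were lower, where 16.3% and 11.1% of all genes were. Against Ly6Clo monocytes, 6 were higher and 1 was lower, where 15.4% and 10.8% of all genes were. In eYFP+ macrophages 3 were higher and 3 lower than in Ly6Chi monocytes (13.9% and 10.6% of all genes), and 3 higher and 4 lower than in Ly6Clo monocytes (15.7% and 12.2%). In Ly6Chi against Ly6Clo monocytes, 1 was higher and 5 were lower (3.66% and 4.96% of all genes).

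The second list, 27 transcription factors of stem and progenitor cells, of which 25 or 26 could be tested, is made up of partners and neighbours of the members in the same network. In eYFP+ against eYFP- macrophages 4 of 25 were lower and 0 higher, beside the same 1.88% and 0.153% of all genes, with a median log2 fold change of -0.46. They were Nfe2 (-2.51 ± 0.26, DESeq2 adjusted p = 4.30e-18), Bcl11a (-2.92 ± 0.45, adjusted p = 5.50e-08), Mycn (-4.38 ± 0.99, adjusted p = 0.00144) and Zfpm1 (-3.05 ± 0.90, adjusted p = 0.0358). Nfe2 and Bcl11a were higher still in monocytes, with 207 to 321 TPM for Nfe2 in monocytes and 66.7 to 84.2 TPM in eYFP- macrophages. The eYFP- macrophages had 8 of 25 factors higher and 9 lower than Ly6Chi monocytes (16.3% and 11.1% of all genes), and 7 higher and 7 lower than Ly6Clo monocytes (15.4% and 10.8%). For eYFP+ macrophages the counts were 2 higher and 9 lower of 26 against Ly6Chi (13.9% and 10.6% of all genes), and 4 higher and 7 lower of 25 against Ly6Clo monocytes (15.7% and 12.2%). Between the monocyte groups 1 was higher and 1 lower in Ly6Chi (3.66% and 4.96% of all genes).

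Some markers of other bone marrow cells were higher in eYFP- than in eYFP+ macrophages as well, and their part in the results on the members was not tested. Their counts stand beside the same 1.88% of all genes lower and 0.153% higher. Of 5 granulocyte-monocyte progenitor genes, Prtn3, Mpo and Ctsg were lower in eYFP+ macrophages (3 of 5). Their summed level was 206 to 828 TPM in eYFP-, 10.6 to 59.4 TPM in eYFP+ macrophages, 966 to 1555 TPM in Ly6Chi and 5.84 to 22.5 TPM in Ly6Clo monocytes. Mpo, the myeloperoxidase of promyelocytes, was 129, 424 and 512 TPM in eYFP- and 6.66, 34.6 and 4.52 TPM in eYFP+ macrophages (-4.49 ± 0.73, DESeq2 adjusted p = 4.82e-07). The lowest of the eYFP- values was in replicate 1, as for 8 of the 10 members.

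Of 6 mast cell and basophil genes, 5 were tested and 2, Mcpt8 and Hdc, were lower in eYFP+ macrophages. The list summed to 349 to 831 TPM in eYFP- and 1.44 to 10.4 TPM in eYFP+ macrophages. It was 8.89 to 169 TPM in Ly6Chi and 7.16 to 16.9 TPM in Ly6Clo monocytes. Mcpt8, a basophil protease, was 87.4, 155 and 203 TPM in eYFP- macrophages and 0, 0.180 and 0.146 TPM in eYFP+ macrophages (-10.42 ± 1.86, DESeq2 adjusted p = 9.23e-06). Both Gata2 and this sum were lowest in replicate 1 and highest in replicate 3 of the eYFP- group. In eYFP+ macrophages they parted, since the sum was 9.73, 10.4 and 1.44 TPM and Gata2 was 0.546, 1.55 and 1.35 TPM. In Ly6Chi monocytes, replicate 3 held the highest sum of the list and the only Gata2 reads of the group.

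Of 8 endothelial and stromal genes, 1, Egfl7, was lower in eYFP+ macrophages (-3.70 ± 0.52, DESeq2 adjusted p = 1.54e-09), and the list summed to 55.9 to 78.2 TPM against 8.37 to 16.3 TPM. Most of that sum was Cxcl12, a chemokine of stromal and endothelial cells, at 46.2, 34.2 and 62.9 TPM in eYFP- and 6.07, 13.2 and 7.62 TPM in eYFP+ macrophages (-2.41 ± 1.08, DESeq2 adjusted p = 0.414). Cdh5, the cadherin that defines endothelium, was low but also apart, at 0.906, 0.872 and 0.240 TPM in eYFP- and 0.214, 0.126 and 0.163 TPM in eYFP+ macrophages (-1.95 ± 0.97, DESeq2 adjusted p = 0.543). Emcn, an endothelial sialomucin, was 2.76, 1.94 and 1.06 TPM against 0.129, 0.349 and 0.299 TPM (-2.91 ± 1.203, DESeq2 adjusted p = 0.313). Kdr, the VEGF receptor of endothelium, overlapped at 0.125 to 1.496 TPM against 0 to 0.310 TPM, and so did the stromal genes Pdgfrb (0.661 to 1.74 against 0.0905 to 0.743 TPM) and Col1a1 (0.309 to 1.67 against 0.152 to 1.73 TPM). Lepr, a further stromal gene of the list, was lower in eYFP+ macrophages at -2.94 ± 1.28 (DESeq2 adjusted p = 0.373). Cxcl12, Cdh5, Emcn, Kdr, Pdgfrb, Col1a1 and Lepr were named after their values were seen.

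Of 7 erythroid genes, 2, Klf1 and Car2, were lower in eYFP+ macrophages, and the sums, made up mostly of the globin genes Hba-a1 and Hbb-bs (chosen after their values were seen), were 17978 to 29880 TPM against 7019 to 12299 TPM. Of 6 megakaryocyte genes, 1 of 5 tested was lower. It was Itga2b, the platelet integrin also found on early progenitors, at 11.2, 15.1 and 21.1 TPM in eYFP- and 0.457, 0.905 and 0.960 TPM in eYFP+ macrophages (-4.34 ± 0.997, DESeq2 adjusted p = 0.00180). Gp9, a platelet glycoprotein named after its values were seen, was 12.4, 6.93 and 7.37 TPM against 2.97, 0 and 2.36 TPM (-2.28 ± 1.02, DESeq2 adjusted p = 0.406). Both were higher in every eYFP- library, while the summed level of the list overlapped at 136 to 185 TPM and 122 to 200.2 TPM. That sum was nearly all Pf4 (chosen after its values were seen), a platelet chemokine, at 110 to 161 TPM in eYFP- and 118 to 198 TPM in eYFP+ macrophages. The untested gene was Gp1bb, named after its values were seen, which was at most 0.0418 TPM in any library. Of 12 proliferation genes, 5 were lower, with sums of 496 to 858 TPM against 191 to 313 TPM. Of 8 B-lineage genes, 0 of 6 tested passed (1 at an unadjusted DESeq2 p under 0.05), with sums of 468 to 585 TPM against 471 to 703 TPM. That sum was nearly all Cd79b, chosen after its values were seen, at 449 to 583 TPM in eYFP- and 470.2 to 701 TPM in eYFP+ macrophages, and no other gene of the list was above 6.58 TPM in a macrophage library. Of 7 monocyte genes, 2 of 5 tested were lower, and of 8 macrophage genes 0 passed (0 at an unadjusted DESeq2 p under 0.05). No listed gene was at 0 in all 3 eYFP- libraries.

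**Figure D4:**
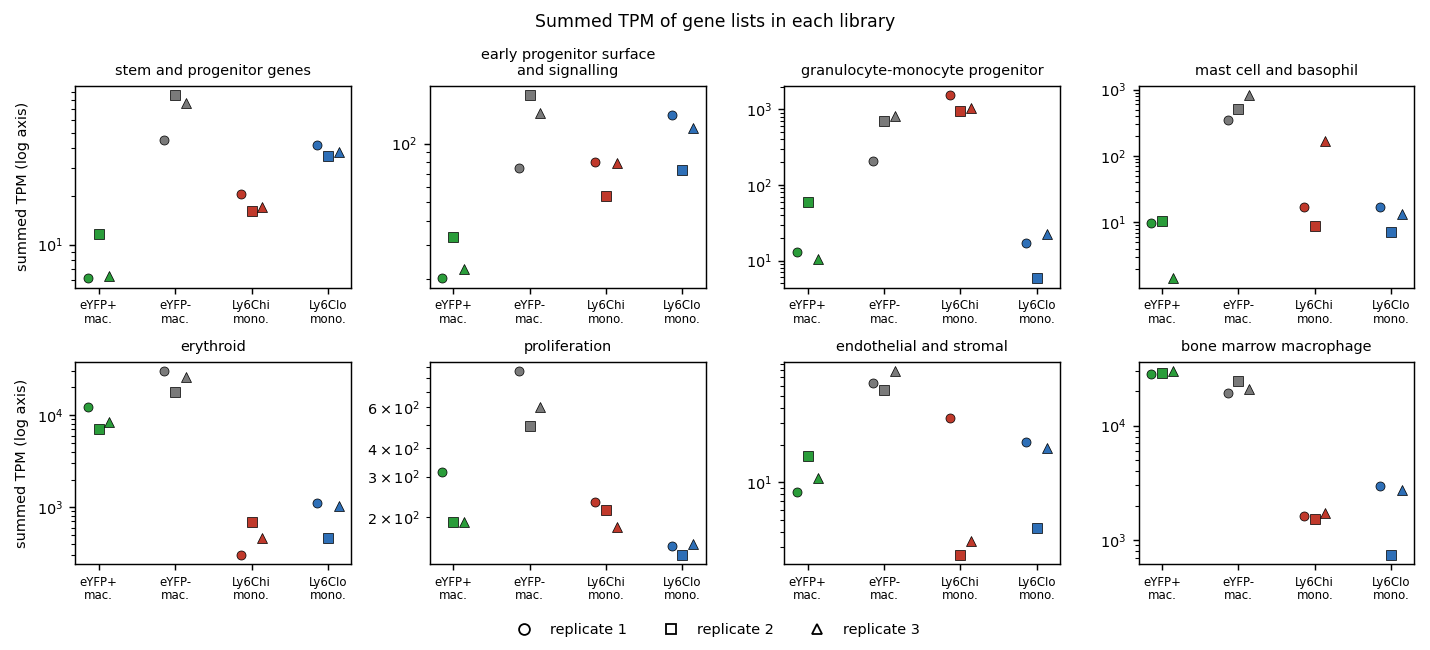
Summed TPM (log axis) of the 10 stem and progenitor genes and of 7 other gene lists in each of the 12 libraries; symbols are replicates 1 to 3. The eYFP- macrophages lie above the eYFP+ macrophages for all lists shown but the macrophage markers, where eYFP+ libraries had 28056 to 29803 TPM and eYFP- libraries 19273 to 24732 TPM.

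In the comparisons with monocytes the lists differed among themselves. Of all genes tested, 16.3% were higher in eYFP- macrophages than in Ly6Chi and 15.4% than in Ly6Clo monocytes, and for eYFP+ macrophages the shares were 13.9% and 15.7%. All 5 granulocyte-monocyte progenitor genes were higher in Ly6Chi than in Ly6Clo monocytes (3.66% of all genes), the direction of the Myb values (1.86 ± 0.94) and the reverse of Cd34 (-1.67 ± 0.67) and Cbfa2t3. The eYFP- macrophages had all 5 above Ly6Clo monocytes and 1, Prtn3, below Ly6Chi monocytes. All 7 erythroid genes were higher in both macrophage groups than in either monocyte group. Of 12 proliferation genes, 9 were higher in eYFP- macrophages than in Ly6Chi and 11 than in Ly6Clo monocytes, against 1 and 3 for eYFP+ macrophages.

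Exons of 6 members overlap a gene on the opposite strand (Cd34, Myb, Meis1, Mecom, Cbfa2t3 and Sox4), and exons of Meis1 and Hoxa9 overlap a gene on the same strand. The use of strand in counting is not stated, and it would not matter for the partners on the same strand. How read pairs from shared stretches were counted is therefore not known. Gata2, Hlf and Erg have no such partner in GENCODE M21, where the overlaps were looked up, which is not the Ensembl annotation of the counts.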

How the data were processed

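As the methods of the study describe it, adapters were trimmed, reads were error-corrected, and the authors removed ribosomal RNA, aligned the rest to GRCm39 with segemehl and assigned read pairs to exons of Ensembl genes with featureCounts. The authors deposited counts, whole numbers of unambiguous read pairs per gene, and TPM values (counts divided by gene length and scaled to a common total). Another table, variance-stabilised, was not used. Libraries were made from amplified cDNA without molecular identifiers being described, so read pairs are not independent molecules and limits from a count of 0 cover counting error only.

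Each library took its group and number from its title. The 10 genes, the gene lists and the comparisons were chosen with earlier results of these data known. The study's methods name DESeq2 and an adjusted p cutoff of 0.05. Here counts were tested on all genes with DESeq2 1.42.0 in R 4.3.3, in 1 fit of the 12 libraries by group with median-of-ratios size factors, Wald tests of 6 contrasts, unshrunken fold changes, and Benjamini-Hochberg adjusted p under 0.05 over all genes with independent filtering. Alternatives were edgeR 4.0.16, limma 3.58.1 on log2(TPM + 1), other filters and scalings, a replicate block, and each library left out in turn. The DESeq2 fits on 6 libraries were added after the data were seen. The methods were tested on simulated data.

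All 10 members were named whatever their values. The 6 genes most like them were those with the highest Pearson's r with the members' mean z-score, among genes with a mean of at least 50 normalized counts. Of each list, up to 4 genes with the lowest adjusted p were named, and others are said to be chosen after their values were seen. Symbols, matched for 91.4% of the identifiers, and transcript GC content came from GENCODE M21. RefSeq promoters were matched by symbol.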

Additional observations from a re-analysis of the deposited data

How the results depend on the processing

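All 24 calls of a member in a comparison kept their direction in 543 alternative fits, and 455 of these fits kept the call. These are refits of the same 12 libraries and are not independent. Fits without an adjusted p are not among them, which left 20 of 23 for the Hoxa9 call and 21 of 23 for each Erg call. Over all members and comparisons, 54 results had no adjusted p or no fit. The edgeR quasi-likelihood test called 2 members between the macrophage groups and 0 between the monocyte groups. It called 2 for eYFP- macrophages against Ly6Clo monocytes and 2 for eYFP+ macrophages against Ly6Chi monocytes. Its shares of all genes in these comparisons were 0.334%, 4.32%, 21.9% and 24.6%. The main fit had no block because the study's methods name none. In none of the 6 comparisons were the deviations of all 3 same-numbered pairs correlated over 0.1. They were 0.13, 0.05 and 0.05 between the macrophage groups, and 0.07, 0.11 and 0.06 for eYFP- macrophages against Ly6Clo monocytes. Whether same-numbered libraries share a mouse or a batch is not stated, and these correlations cannot settle it. With the replicate block, edgeR called 1, 0, 2 and 2 members in these comparisons (0.125%, 2.80%, 17.8% and 20.7% of all genes), and DESeq2 called 3, 1, 5 and 3 (3.0%, 6.34%, 15.9% and 15.9% of a larger set of genes). The 2 for eYFP+ macrophages against Ly6Chi monocytes were Cbfa2t3 and Sox4 in edgeR without the block and Cbfa2t3 and Erg with it. As a hint from the data alone, all 6 libraries correlated best with their own number for eYFP- macrophages against Ly6Chi monocytes. Against Ly6Clo monocytes 4 of 6 did, and between the macrophage groups 3 of 6 did. For eYFP+ macrophages 2 did against Ly6Chi and 0 against Ly6Clo monocytes, and between the monocyte groups 0 did. Without independent filtering DESeq2 called 3 members for eYFP- macrophages against Ly6Clo monocytes, and 11.2% of 42837 genes. With limma on log2(TPM + 0.1), 7 members passed the filter. Of these, 2 were called between macrophages (1.11% of all genes) and 0 between monocytes (6.94%). With limma on log2(TPM + 1) without a filter, all 10 were tested. The counts were then 2 between macrophages (0.512% of all genes) and 2 for eYFP+ macrophages against Ly6Chi monocytes (10.8%). The DESeq2 fits on 6 libraries called 8 between macrophages and 2 between monocytes. They called 8 and 4 for eYFP- macrophages against Ly6Chi and Ly6Clo monocytes, and 4 and 2 for eYFP+ macrophages against them. The shares of all genes were 3.28%, 5.92%, 34.7%, 19.0%, 30.7% and 17.3%, in the same order. In the fits with 0 calls between monocytes, 2 (edgeR, with and without the block) or 3 (limma) members had an unadjusted p under 0.05.

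Leaving out 1 library gave 2 to 6 calls between macrophages and 0 to 2 between monocytes. For eYFP- macrophages it gave 5 to 8 against Ly6Chi and 2 to 6 against Ly6Clo monocytes. For eYFP+ macrophages it gave 2 to 5 and 2 to 4 against them. The shares of all genes called in these fits were 1.31% to 4.16% between macrophages and 6.43% to 11.3% between monocytes. They were 14.5% to 32.2% and 20.4% to 28.5% for eYFP- macrophages against Ly6Chi and Ly6Clo monocytes. For eYFP+ macrophages they were 15.7% to 34.9% and 22.5% to 28.2%. With any eYFP- library left out, 9 members were tested. Between monocytes the count was 0 without Ly6Chi replicate 2 (2 at an unadjusted p under 0.05) or Ly6Clo replicate 1 (3 at that level). It was 2 without eYFP+ replicate 1, eYFP+ replicate 2 or Ly6Clo replicate 3. In these fits 6.43%, 10.3%, 9.82%, 8.02% and 11.3% of all genes were called, in that order.

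The direction of 11 values changed, and none of them was called in the fit of all 12 libraries. For Hoxa9 in eYFP+ macrophages against Ly6Clo monocytes, -0.58 became 1.75 (DESeq2 with the replicate block), 1.14 (edgeR with the block), 0.39 (limma on log2(TPM + 0.1)) and 6.12 without Ly6Clo replicate 1, where it was called (DESeq2 adjusted p = 0.00428). Without that library the Ly6Chi against Ly6Clo values of Hoxa9, Gata2 and Erg became 4.86, 0.65 and -0.19. Without Ly6Clo replicate 3, Erg became -0.19 in that comparison and Myb 0.44 in eYFP+ macrophages against Ly6Clo monocytes. Without eYFP+ replicate 1, Mecom became -0.18 against Ly6Clo, and without Ly6Chi replicate 1, Hlf became 0.32 against Ly6Chi monocytes. Over the single omissions, Hoxa9 ran from -1.62 to 6.12, Mecom from -0.18 to 1.32 and Myb from -1.67 to 0.44 in eYFP+ macrophages against Ly6Clo, and Hlf from -2.91 to 0.32 against Ly6Chi monocytes. Between monocytes Hoxa9 ran from -3.63 to 4.86, Gata2 from -6.04 to 0.65 and Erg from -0.19 to 1.61. The causes were not tested. Scaling by TMM moved the median of all genes by at most 0.035 on the log2 scale. Hoxa9, Hlf, Mecom and Erg had few read pairs in most groups, and whether depth limited their calls was not tested.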
